A study of Mus musculus with 9 samples.

Results

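The collagen genes of mouse were examined as a family: the 44 protein-coding genes whose symbol is Col, a type number, the letter a and a chain number, taken by name alone out of the 51717 genes to which transcripts were summed. They were measured in B16F10 cells, a pigmented melanoma line of the mouse, in 3 forms: a line with the genotype non-target control, a line with SIRPA knockdown and a line with SIRPA overexpression. SIRPA is signal regulatory protein alpha, a cell-surface receptor for CD47 that is best known from macrophages, and the design asks how the transcriptome differs with less or more of it. Each line had 3 libraries (replicates 1 to 3), described as biological repeats, and the 9 libraries shared one medium and one library kit. Each condition is 1 line. Nothing in the labels tells how each was produced, whether cells of 1 clone or a pool were used, or whether the control carries a vector matched to both of the others. The p-values therefore cover the spread between repeats, and the difference between lines that would be seen with other clones is not measured.

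Collagens are secreted proteins built of alpha chains that wind around each other in a helix. Some types, such as II and III, are built from copies of a single chain, and others, such as types I, IV and IX, combine chains of different genes, which must then be made in the same cell. Fibrillar collagens such as types I, II, III and V form the banded fibrils of dermis, bone and cartilage; type IV forms the sheet-like network under epithelia and around vessels, nerves and muscle; and smaller families bind to fibril surfaces, anchor basement membranes, form short-chain networks or span the cell membrane. Fibroblasts are the usual source of fibrillar collagen in skin, while many cell types, melanoma cells among them, make type IV chains.

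Promoters of 35 of the 44 genes are in the RefSeq table of GRCm38.p6, in 38 windows of the 250 bases before an annotated start. The windows shown are those of Col5a1, the fibrillar chain with the highest mean TPM over the 9 libraries, and of Col8a1. Col8a1, which fell in knockdown and was higher in overexpression than in knockdown, was added after its values were seen. Both windows are free of annotated exons and hold the sequence GGGCGG (on either strand, where it reads CCGCCC) more than once. The Col5a1 window is chr2:27886175-27886424 on the plus strand and that of Col8a1 is chr16:57754738-57754987 on the minus strand, both written 5′ to 3′ with the matches in capitals.
Col5a1: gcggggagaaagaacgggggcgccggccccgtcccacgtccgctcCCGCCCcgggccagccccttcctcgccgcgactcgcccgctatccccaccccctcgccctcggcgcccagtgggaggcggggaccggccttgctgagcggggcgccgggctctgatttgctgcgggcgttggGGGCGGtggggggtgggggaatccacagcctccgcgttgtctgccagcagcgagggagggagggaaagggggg
Col8a1: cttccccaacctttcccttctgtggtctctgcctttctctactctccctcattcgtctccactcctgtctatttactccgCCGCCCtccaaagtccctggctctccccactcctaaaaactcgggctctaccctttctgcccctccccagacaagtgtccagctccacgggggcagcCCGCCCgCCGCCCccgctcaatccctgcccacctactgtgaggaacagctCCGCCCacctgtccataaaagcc
The Col5a1 window held 2 matches and the Col8a1 window 4. GGGCGG stood in 22 of the 38 collagen windows (57.9%) and in 32.7% of all 32851 windows of the table, and the collagen windows were richer in G and C (median 59.0% against 52.4%). CCAAT stood in 34.2% of collagen windows against 33.8% of all, and TATAAA in 13.2% against 12.4%. These matches describe letters in a window and are not binding sites.

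Depth was 16404396 to 22379203 estimated counts per library. Sirpa itself was at 295 ± 7.42 CPM in control, 115 ± 2.99 in knockdown and 902 ± 10.0 in overexpression libraries (counts per 1000000 with TMM library sizes, mean ± SD, n = 3), in the direction of each label. The melanocyte markers summed to 17100 to 19800 CPM per library. Ptprc, Adgre1, Cd3e, Cdh5, Kdr, Epcam, Krt8 and Krt18, which mark leukocytes, endothelium and epithelium, were at 0 counts in all 9 libraries. Other markers on those lists had reads, and Cd68, Lyz2 and Cdh1 were tested. Per library the leukocyte list summed to at most 4.8 CPM, the endothelial list to 0.353 and the epithelial list to 2.06. Cd68 was lower in overexpression than in knockdown (log2 -1.40, edgeR adjusted p = 0.0226). Of 12 fibroblast markers that are not collagens, 5 were tested and their list summed to 229 to 237 CPM in control, 180 to 191 in knockdown and 236 to 240 in overexpression libraries, while Thy1, Twist2 and Mfap5 were at 0 and Dcn and Lum at a mean of at most 0.119 CPM. The 5 did not move one way in knockdown, with a median log2 change of -0.04: Fbln1, most of the sum, and Pdpn fell (-0.63 and -0.45), Postn rose (1.18), and Pdgfra and Pdgfrb did not pass. In overexpression Pdgfrb rose (0.50) and the other 4 did not pass. The part of fibroblast markers in the collagen differences below was not tested. In bulk RNA, fewer cells making a transcript and less transcript per cell cannot be told apart.

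Collagen transcripts were a small part of these cells' RNA, at a mean of 0.0468% of counts in control, 0.0318% in knockdown and 0.0366% in overexpression libraries. Of the 44 genes, 37 had counts in at least 1 library, 23 had counts in all 9, and 25 passed the filter on low counts and were tested. Of the 25, Col18a1 and Col6a1 reached the filter's level in the control line alone, so that they could be tested only because they were high there. Col14a1 reached it in 3 control libraries, 1 overexpression library and no knockdown library, so its test also rested on control. On the TPM scale, which divides by transcript length and allows genes to be ranked against each other, the highest means over the 9 libraries were those of Col16a1 (17.29 TPM), Col5a1 (12.93), Col4a1 (12.3), Col4a5 (10.81) and Col1a1 (10.34). The ranges of each of these 5 over the libraries overlapped the next, so their order is not firm. The level of Col16a1 rests partly on noncoding transcripts, with 51.7% of its counts on protein-coding ones, against 99.9% or more for Col5a1, Col4a1, Col4a5 and Col1a1. The next were Col4a2 (8.453 TPM), Col15a1 (3.829), Col5a3 (3.649), Col8a1 (3.458) and Col11a2 (2.906), and the remaining tested members had means of 0.1519 to 2.735 TPM.

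**Figure D1:**
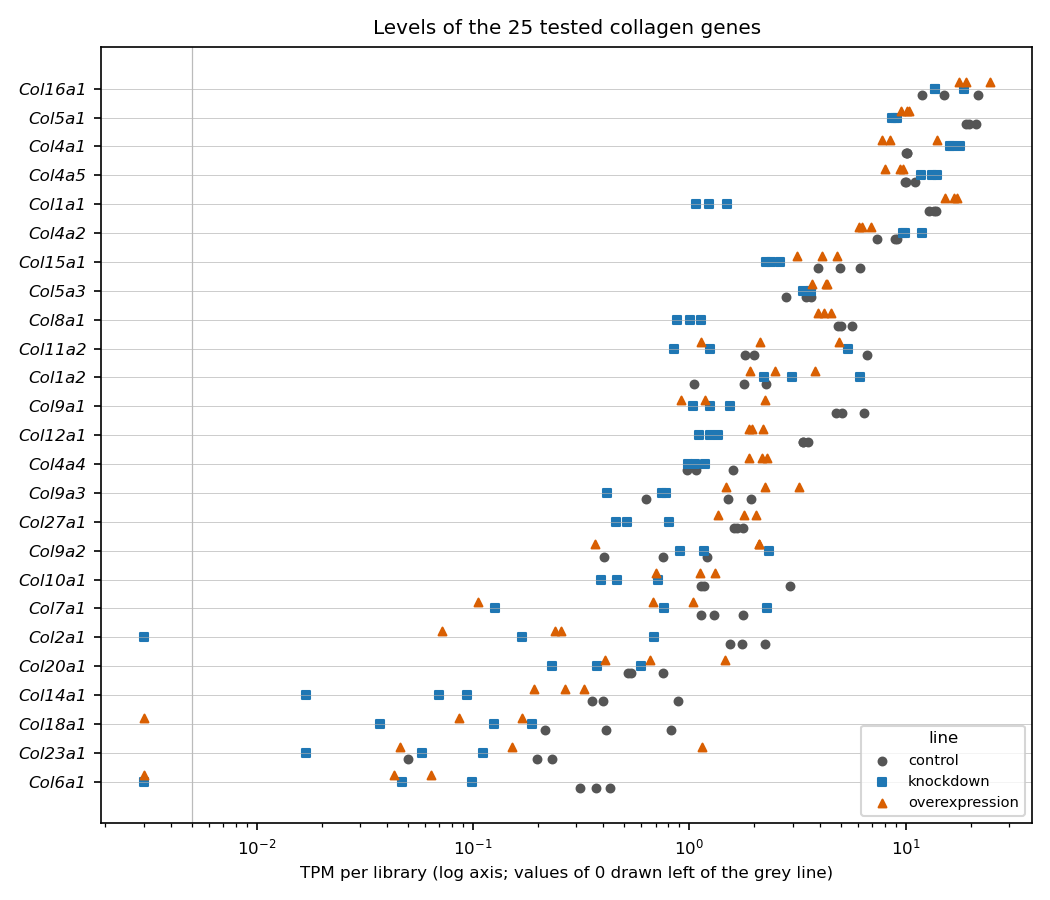
TPM (log axis) of the 25 tested collagen genes in each library, 3 points per line (circles control, squares knockdown, triangles overexpression), ordered by mean. Col1a1 sits at 1.07 to 1.49 TPM in the knockdown libraries and at 12.8 to 17.3 TPM in the other 6, while the type IV chains Col4a1, Col4a2 and Col4a5 keep all libraries between 6.08 and 17.8 TPM.

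The class totals differed between lines. The 11 fibrillar genes summed to 44.5, 49.7 and 43.7 TPM in control, 22.9, 22 and 18.3 in knockdown and 36.1, 40.7 and 37.4 in overexpression libraries. The control libraries were the highest and the knockdown libraries the lowest, with no overlap. The 9 basement membrane genes summed to 37.8, 38 and 35.2 TPM in control, 43.1, 46.4 and 45.5 in knockdown, and 28.9, 30.5 and 37.8 in overexpression libraries, so the knockdown libraries were the highest here and overexpression replicate 3 fell among the controls. The 24 genes of neither class summed to 35.81 ± 4.06 TPM in control, 22.24 ± 2.35 in knockdown and 34.89 ± 2.69 in overexpression libraries (SD, n = 3).

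As shares of all collagen TPM, the basement membrane class held 31.2% ± 1.7 in control, 51.0% ± 2.6 in knockdown and 30.7% ± 3.8 in overexpression libraries. The fibrillar share was 38.7% ± 2.0, 23.8% ± 2.2 and 36.1% ± 1.3 in the same order. In knockdown most of the difference in the fibrillar sum lay in Col1a1 and Col5a1. Without them the other 9 fibrillar genes summed to 12.74 ± 2.13, 10.9 ± 2.82 and 11.66 ± 2.01 TPM, ranges that overlap. Means within these 9 moved both ways in knockdown. Col2a1 (1.845 to 0.2856 TPM) and Col27a1 (1.677 to 0.5933) were lower, and Col1a2 (1.701 to 3.77, with 6.123 in replicate 2) was higher. In overexpression Col1a1 was above control (16.42 against 13.33 TPM) and Col5a1 below it (10.01 against 19.91). Within the basement membrane class the 6 type IV chains summed to 30.11 ± 0.664, 41.42 ± 1.61 and 27.67 ± 3.92 TPM, while Col7a1, Col15a1 and Col18a1 summed to 6.911 ± 1.5, 3.598 ± 1.1 and 4.728 ± 0.824. These sums are descriptions and were not tested.

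**Figure D2:**
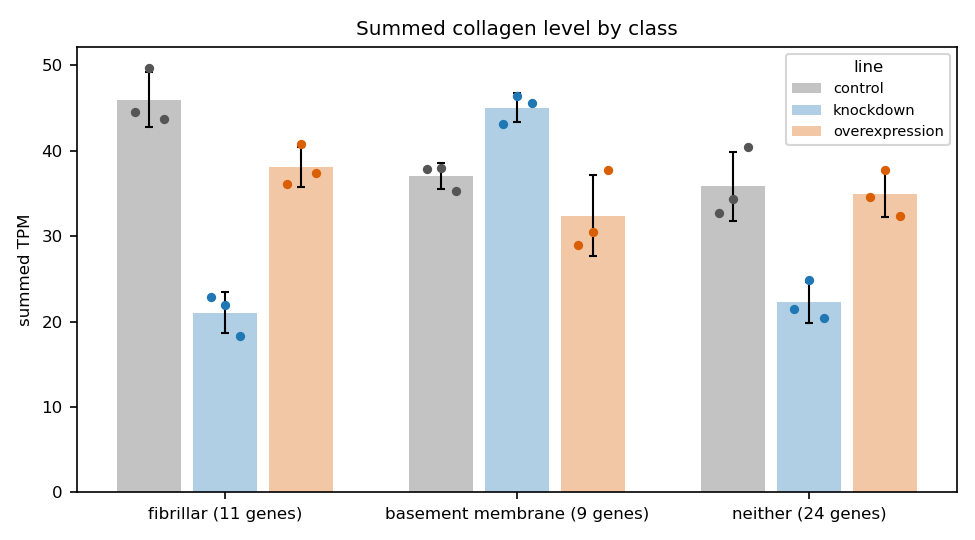
Summed TPM of the fibrillar, basement membrane and remaining collagen genes by line. Bars are means of 3 libraries, error bars SD and points single libraries. The fibrillar bar stands at 45.98 TPM in control and 21.04 in knockdown, while the basement membrane bar stands at 37.02 and 45.02.

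Gene by gene, 15 of the 25 tested collagens passed the test in the knockdown line against control (edgeR quasi-likelihood test, Benjamini-Hochberg adjusted p under 0.05 over 13064 genes), 3 higher and 12 lower. The lower genes here and in overexpression include Col18a1 and Col6a1, which could be tested only because control was high. Those in knockdown also include Col14a1, whose test rested on control too. In the same comparison 35.4% of all genes tested passed, 18% higher and 17.4% lower. In the overexpression line 12 of 25 passed, 3 higher and 9 lower, where 24.3% of all genes passed, 13.1% higher and 11.1% lower. Between overexpression and knockdown 12 passed, 9 higher and 3 lower in overexpression, where 22.1% of all genes passed, 11% higher and 11.1% lower. The median log2 fold change of the 25 was -1.12, -0.34 and 0.54 in these comparisons, and that of all genes tested was -0.008, -0.001 and 0.004. The medians of the 25 include Col18a1, Col6a1 and Col14a1, whose tests rested on control, and are a description. Both comparisons with control use the same 3 control libraries, so their values are given side by side and no agreement between them is read as evidence.

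**Figure D3:**
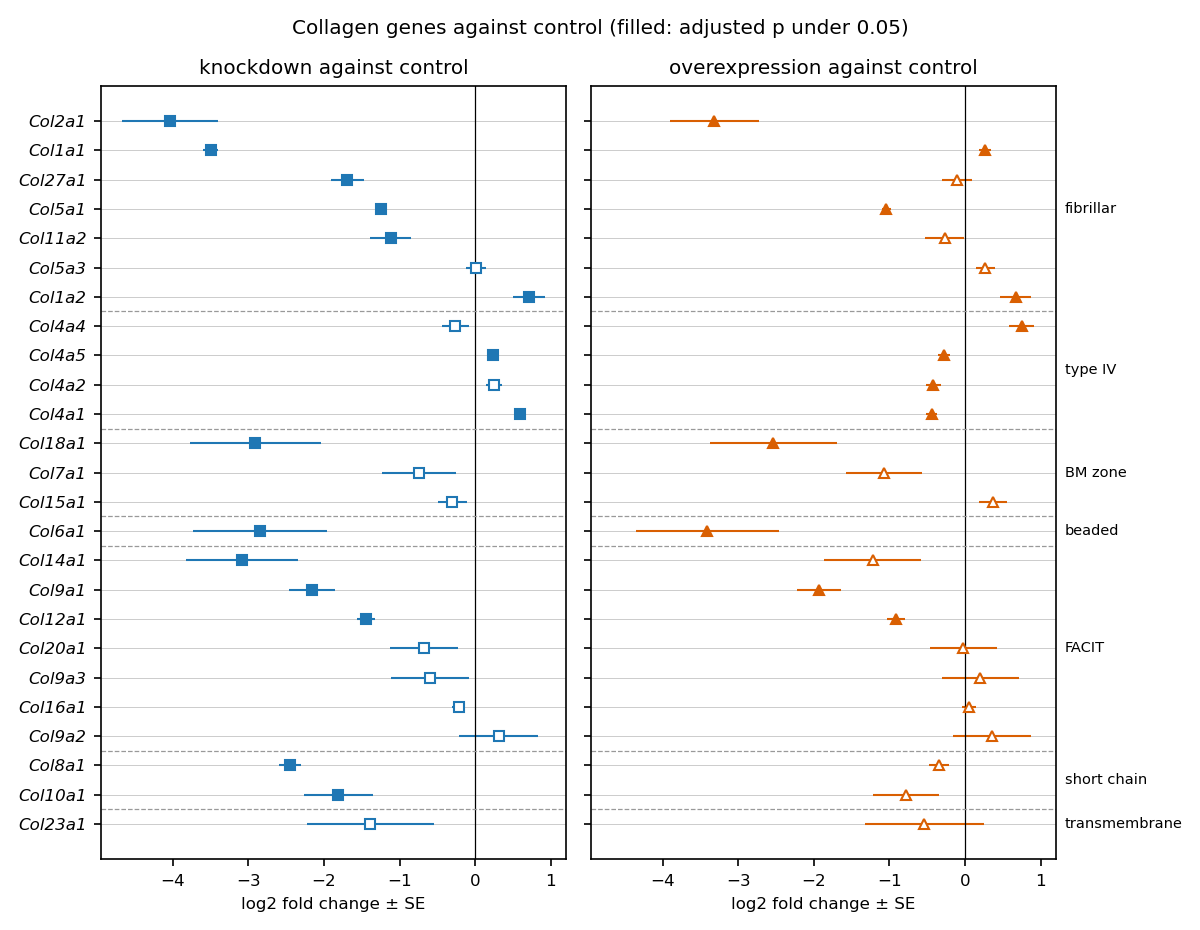
Log2 fold change ± SE of the 25 tested collagen genes in each perturbed line against control, grouped by class, filled where the adjusted p was under 0.05. Col1a1 lies at -3.50 in the knockdown panel and at 0.26 in the overexpression panel, and the type IV chains Col4a1 and Col4a5 lie on opposite sides of 0.

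Type I collagen, the main fibril protein of skin and bone, is usually assembled from more Col1a1 than Col1a2 chains, and these chains moved apart. Col1a1 was at 52.9, 57.6 and 56.3 CPM in control, 4.33, 4.82 and 5.71 in knockdown and 63.2, 70.2 and 66 in overexpression libraries. The knockdown libraries lay far below all others, and the overexpression libraries lay above all controls. Col1a1 fell with knockdown (log2 fold change -3.50, SE 0.10, 11.3-fold, edgeR adjusted p = 4.57e-13) and was 13.5-fold higher in the overexpression than in the knockdown line. The rise in overexpression against control was small (log2 0.26 ± 0.08, edgeR adjusted p = 0.0233) and missed the threshold without control replicate 1, control replicate 3, overexpression replicate 2 or overexpression replicate 3 (adjusted p 0.0626 to 0.105), and with transcript lengths as an offset (0.134).

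Col1a2 was at 6.01, 6.06 and 3.75 CPM in control, 7.85, 9.76 and 8.26 in knockdown and 7.03, 9.65 and 8.48 in overexpression libraries. All 6 libraries of the perturbed lines lay above the 3 controls. Col1a2 rose in both lines, by log2 0.71 ± 0.21 in knockdown (edgeR adjusted p = 0.0136) and 0.67 ± 0.21 in overexpression (0.0271). Both calls depended on single libraries: without control replicate 3, the lowest, the adjusted p was 0.0665 and 0.124, without knockdown replicate 2 the first was 0.0514, and without overexpression replicate 2 or 3 the second was 0.107 and 0.0661. With transcript lengths as an offset neither passed (0.0945 and 0.367). In TPM, the ratio of Col1a1 to Col1a2 was 5.63, 7.71 and 12.8 in control, 0.482, 0.2 and 0.5 in knockdown, and 8.02, 4.54 and 6.71 in overexpression libraries. Col1a1 thus exceeded Col1a2 in every control and overexpression library and was below it in every knockdown library, also on protein-coding transcripts alone, where the knockdown ratios were 0.499 to 0.683.

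Type V collagen sits in the core of type I fibrils and limits their width. Col5a1, its main chain, was at 113.2, 127 and 118.4 CPM in control, 50.3, 50.4 and 50.1 in knockdown and 60.4, 55.3 and 59.1 in overexpression libraries. Every library of the perturbed lines lay below every control, with overexpression just above knockdown. The fall was log2 -1.25 ± 0.06 in knockdown (2.38-fold, edgeR adjusted p = 4.06e-10) and -1.04 ± 0.06 in overexpression (2.05-fold, 8.19e-09). Between the perturbed lines Col5a1 was 1.16-fold higher in overexpression (adjusted p = 0.0245), a call lost without knockdown replicate 1, knockdown replicate 3, overexpression replicate 1 or overexpression replicate 3 (0.0581 to 0.119) and with the length offset (0.102).

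Col5a3, a chain of a rarer type V form, was at 14.8, 11.8 and 15.7 CPM in control, 14.7, 14.7 and 13.3 in knockdown and 18.5, 15.5 and 17.1 in overexpression libraries. Control overlapped both other lines. It passed no comparison, with log2 0.01 (95% interval -0.24 to 0.26) in knockdown and 0.27 (0.02 to 0.52) in overexpression against control. Col5a2, the usual partner of Col5a1, was not tested: it had 2 counts in control, 16 in knockdown and 16 in overexpression, all 16 of the knockdown counts in replicate 1.

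Collagen types II and XI make the fibrils of cartilage. Col2a1, the type II chain, was at 5.88, 5.46 and 7.99 CPM in control, 0.586, 0.536 and 0 in knockdown and 0.802, 0.235 and 0.86 in overexpression libraries. All controls lay above all other libraries, with 348 counts in control against 22 and 36. Its fall was log2 -4.04 ± 0.63 in knockdown (edgeR adjusted p = 0.0001) and -3.32 ± 0.59 in overexpression (0.000615). The size in knockdown ranged from -4.79 with limma-voom to -3.03 with the length offset. The chondrocyte markers, 2 of 5 of them tested, also differed, with a list sum of 42.9 to 45.4 CPM in control, 17.7 to 21.6 in knockdown and 22.5 to 26.8 in overexpression libraries. Most of that difference was Matn3, a cartilage matrix protein, which fell from 22.67 ± 2.64 CPM in control to 2.736 ± 0.0605 in knockdown and 1.766 ± 0.711 in overexpression (log2 -3.05 and -3.66, edgeR adjusted p = 2.65e-08 and 1.21e-08). Sox9, the cartilage transcription factor, was at 21.1, 16.92 and 23.2 CPM and passed against control in knockdown alone (-0.31, adjusted p = 0.0351). Acan and Matn1, also cartilage matrix genes, were at 0 counts in every library, and the part of the list in the Col2a1 difference was not tested.

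Col11a2 was at 7.72, 9.77 and 7.1 CPM in control, 4.96, 3.04 and 3.22 in knockdown and 8.6, 7.47 and 4.3 in overexpression libraries. The knockdown libraries lay below the controls, and overexpression replicate 3 fell inside the knockdown range. It fell in knockdown (log2 -1.12 ± 0.27, edgeR adjusted p = 0.0036) and was higher in overexpression than in knockdown (0.85 ± 0.27, 0.0307). Its reads were spread over several transcripts of unequal length, the leading one holding 34.9% to 85.8% of counts per library. With transcript lengths as an offset the difference was -0.58 (adjusted p = 0.649) in the first comparison and 0.18 (0.921) in the second. The second was also lost with limma-voom (0.0613) and without knockdown replicate 2, knockdown replicate 3, overexpression replicate 1 or overexpression replicate 2 (0.095 to 0.157). Its partner Col11a1 had 24 counts over all 9 libraries and was not tested.

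Col27a1, a fibrillar chain of developing cartilage, was at 7.72, 9.03 and 7.59 CPM in control, 2.84, 2.62 and 2.01 in knockdown and 7.64, 6.03 and 8.89 in overexpression libraries. The knockdown libraries stood apart below and the other lines overlapped. Its fall in knockdown was log2 -1.69 ± 0.22 (3.24-fold, edgeR adjusted p = 1.79e-05), it was 3-fold higher in overexpression than in knockdown (7.62e-05), and overexpression against control was -0.11 (95% interval -0.51 to 0.29). Col3a1, the type III chain that accompanies type I in skin, had 21 counts in control (5, 5 and 11), 9 in knockdown (2, 3 and 4) and 0 in all 3 overexpression libraries. Taking the floor as 3 counts over the line and the 21 control counts as exact, it was at least 7.34-fold lower in overexpression than in control. Col3a1 did not pass the low-count filter and was named after its values were seen. Without that filter its edgeR adjusted p was 0.0261, the only one under 0.05 in that comparison among the 12 collagens with counts not tested. Col24a1, with 29 counts in all, was the other untested fibrillar gene. Across the class, 5 of 7 tested fibrillar genes fell and 1 rose in knockdown, and 2 fell and 2 rose in overexpression. Among all genes tested, 17.4% were lower and 18% higher in knockdown, and 11.1% lower and 13.1% higher in overexpression.

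Of the type IV chains, Col4a1 and Col4a5 were higher in knockdown, while Col4a2 and Col4a4 did not pass there. Col4a1 and Col4a2, the chains of the network found in all basement membranes, are neighbours on chromosome 8 that start in opposite directions with 21 bases between their annotated starts in GRCm38. The 2 genes overlap there, sharing 22 exon bases on opposite strands, and the kit does not mark strand. Col4a1 was at 47, 47.7 and 46.9 CPM in control, 73.2, 71.8 and 68.4 in knockdown and 32.6, 33.4 and 38.2 in overexpression libraries. The 3 lines did not overlap, with knockdown on top. Col4a1 rose in knockdown (log2 0.59 ± 0.07, edgeR adjusted p = 8.59e-06), fell in overexpression (-0.44 ± 0.07, 0.000342) and was 2.05-fold lower in overexpression than in knockdown. With the length offset the fall against control was -0.08 (adjusted p = 0.828), and in TPM the overexpression libraries stood at 7.74, 8.49 and 13.9 against 10.1, 10.2 and 10 in control, replicate 3 being above them.

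Col4a2 was at 33.2, 40.2 and 40.7 CPM in control, 43.9, 50.9 and 40.7 in knockdown and 31.2, 27.8 and 26.3 in overexpression libraries. The overexpression libraries were the lowest, and knockdown replicate 3 lay at the level of control replicate 3. Col4a2 fell in overexpression (log2 -0.42 ± 0.10, edgeR adjusted p = 0.00685). In knockdown the difference was 0.25 ± 0.10 and did not pass (0.0688), although it did without the low-count filter (0.0327) or without knockdown replicate 3 (0.0356). Between the perturbed lines it was 1.59-fold lower in overexpression (0.000198). The ratio of Col4a1 to Col4a2 in TPM was 1.21 ± 0.148 in control, 1.61 ± 0.234 in knockdown and 1.59 ± 0.615 in overexpression libraries.

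Col4a5, an X-linked chain of kidney, skin and smooth muscle basement membranes, was at 44.2, 42.1 and 40.6 CPM in control, 53.7, 52.7 and 43.5 in knockdown and 34.8, 33.7 and 36 in overexpression libraries. Knockdown replicate 3 lay inside the control range and the overexpression libraries lay below it. The differences were small: a rise of log2 0.24 ± 0.08 in knockdown (edgeR adjusted p = 0.0301) and a fall of 0.28 ± 0.08 in overexpression (0.0228). The rise was lost without control replicate 2 or 3 or knockdown replicate 1 or 2 (0.0739 to 0.139), the fall without control replicate 1 or 2 or overexpression replicate 1 or 2 (0.0592 to 0.0924), and both with the length offset (0.111 and 0.157). Overexpression against knockdown was -0.52 ± 0.08 (0.000267) and passed in every alternative run. Its partner Col4a6 had 4 counts, all in knockdown replicate 3.

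Col4a4, of the kidney glomerular network, was at 6.99, 11.6 and 7.84 CPM in control, 6.99, 7.26 and 7.9 in knockdown and 13.5, 15.3 and 15.6 in overexpression libraries. All 3 overexpression libraries lay above the other 6. It rose in overexpression (log2 0.75 ± 0.17, 1.68-fold, edgeR adjusted p = 0.00491) and was 2.01-fold higher there than in knockdown (0.000606), whereas knockdown against control was -0.26 (95% interval -0.61 to 0.10). Col4a3, which lies head to head with Col4a4 and pairs with it in the molecule, was not tested and had 1, 7 and 18 counts in control, knockdown and overexpression. It shares 563 exon bases with C430014B12Rik on the opposite strand, a gene with a mean of up to 0.838 CPM in a line. The kit does not mark strand, and the part of that gene in the Col4a3 counts was not tested. Of the 4 type IV chains tested, 2 rose and none fell in knockdown, and 1 rose and 3 fell in overexpression. For all genes tested the shares were 18% higher and 17.4% lower in knockdown, and 13.1% higher and 11.1% lower in overexpression.

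**Figure D4:**
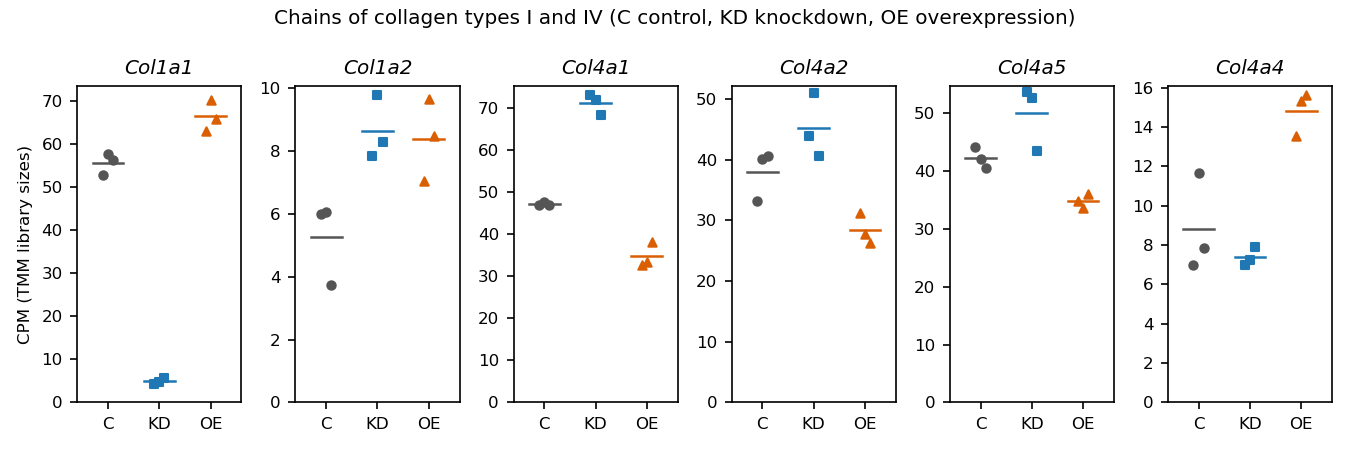
CPM of the type I chains Col1a1 and Col1a2 and of the 4 tested type IV chains in each library, with lines at the means of 3 libraries. Each panel has its own axis from 0. Col1a1 has a mean of 4.954 CPM in knockdown, against 55.58 in control and 66.45 in overexpression, Col4a1 steps from 71.13 CPM in knockdown through 47.23 in control to 34.75 in overexpression, and Col4a4 is highest in overexpression at 14.83.

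The other basement membrane collagens link that network to the stroma or carry an endostatin domain. Col15a1 was at 7.42, 9.15 and 9.32 CPM in control, 7.44, 5.59 and 7.96 in knockdown and 13.4, 8.77 and 11.3 in overexpression libraries. Control overlapped both lines, while all overexpression libraries lay above all knockdown ones. Overexpression exceeded knockdown by log2 0.68 ± 0.19 (edgeR adjusted p = 0.0168), a call lost without knockdown replicate 2 (0.0658) or overexpression replicate 1 (0.107). Against control it was -0.30 ± 0.19 in knockdown and 0.37 ± 0.19 in overexpression, neither passing. With transcript lengths as an offset the knockdown difference was -1.12 (adjusted p = 0.00394) and the overexpression difference changed sign to -0.36.

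Col18a1 was at 2.88, 1.46 and 0.789 CPM in control, 0.135, 0.417 and 0.122 in knockdown and 0.283, 0 and 0.573 in overexpression libraries. All controls lay above all other libraries, but the controls themselves spread widely. The fitted log2 difference was -2.91 ± 0.87 in knockdown (edgeR adjusted p = 0.0155) and -2.54 ± 0.84 in overexpression (0.0371). Since Col18a1 passed the low-count filter through control alone, these values are a description. There were 87 counts in control and 12 and 16 in the others, and both calls depended on single libraries. Without control replicate 1 the differences were -2.30 (0.104) and -1.94 (0.204), and with the length offset neither passed (0.108 for both). The knockdown call was also lost without knockdown replicate 1 or 3 (0.0693 and 0.0643). The overexpression call was also lost without control replicate 2 or overexpression replicate 1 or 2 (0.0754 to 0.113). Leaving out knockdown replicate 2 gave -3.65 in the first comparison and leaving out overexpression replicate 3 gave -3.44 in the second. Col7a1, the anchoring fibril collagen of skin, had 181 counts in all and passed no comparison, at means of 1.61, 0.97 and 0.77 CPM in control, knockdown and overexpression.

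Fibril-associated collagens sit on the surface of fibrils and join them to the surrounding matrix. Col16a1 was at 33.5, 33.6 and 36 CPM in control, 29.9, 33.4 and 25.4 in knockdown and 34.6, 36.8 and 35.8 in overexpression libraries. The lines were close, with the knockdown libraries just below the others. Against control it passed in neither line (log2 -0.22 ± 0.09 and 0.05 ± 0.09). Overexpression against knockdown was 0.27 ± 0.09 (edgeR adjusted p = 0.0462), at the edge of the threshold. That call was lost without any one of control replicates 1 to 3, knockdown replicates 1 and 3 or overexpression replicates 1 to 3 (0.0579 to 0.221), in a fit of only those lines (0.0691), with the length offset (0.233) and on protein-coding transcripts alone (0.0548). Counting protein-coding transcripts alone, Col16a1 was lower in knockdown than in control (-0.74, adjusted p = 0.00745) and the sign in overexpression turned to -0.19. Without knockdown replicate 2 the knockdown difference of -0.31 also passed (0.0183).

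Col12a1, found in tendon and in tissue under tension, was at 24.1, 26.7 and 23.3 CPM in control, 9.02, 8.69 and 9.48 in knockdown and 15.1, 12.6 and 11.6 in overexpression libraries. The 3 lines did not overlap and the overexpression line was in the middle. Its log2 change was -1.44 ± 0.12 in knockdown (2.72-fold, edgeR adjusted p = 2.01e-07) and -0.91 ± 0.12 in overexpression (1.88-fold, 4.1e-05), and the lines differed from each other (0.54 ± 0.13, 0.00549). Col14a1, a related chain, was at 0.858, 1.03 and 2.27 CPM in control, 0.271, 0.119 and 0.061 in knockdown and 0.896, 0.294 and 0.573 in overexpression libraries. Knockdown lay below both other lines, on 9 counts against 77 in control and 34 in overexpression. Col14a1 reached the filter's level in 3 control libraries, 1 overexpression library and no knockdown library, so these values are a description. The fitted log2 difference was -3.09 ± 0.74 in knockdown (edgeR adjusted p = 0.00383), and -3.85 without knockdown replicate 1. In overexpression it was -1.22 (95% interval -2.48 to 0.04).

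Type IX collagen coats cartilage fibrils and is built from Col9a1, Col9a2 and Col9a3 chains. Col9a1 was at 10.4, 9.76 and 13.2 CPM in control, 2.48, 2.02 and 2.92 in knockdown and 4.53, 2.35 and 1.79 in overexpression libraries. All controls lay above all other libraries. Col9a1 fell 4.48-fold with knockdown (log2 -2.16 ± 0.30, edgeR adjusted p = 3.08e-05) and 3.8-fold with overexpression (log2 -1.93 ± 0.29, 0.000146). Its partners passed no comparison: Col9a2 had means of 1.54, 1.9 and 1.98 CPM and Col9a3 of 1.54, 1 and 1.77 CPM in control, knockdown and overexpression. Against control, the 95% intervals of the log2 difference in knockdown were -0.72 to 1.33 for Col9a2 and -1.63 to 0.43 for Col9a3. In overexpression they were -0.67 to 1.39 and -0.81 to 1.2. Col20a1, at 1.13 to 1.82 CPM by line, passed no comparison either. In TPM, the ratio of Col9a1 to Col9a2 was 8.83 ± 6.25 in control, 0.999 ± 0.408 in knockdown and 2.36 ± 3.23 in overexpression libraries. That of Col9a3 to Col9a2 was 1.78 ± 0.677, 0.504 ± 0.278 and 3.5 ± 4.54 in the same order, with wide spreads. Of the 7 tested members of this class, 3 fell in knockdown, 2 fell in overexpression and none rose. The 3 include Col14a1, whose test rested on control. Beside these counts, 17.4% of all genes tested were lower in knockdown and 11.1% in overexpression. In either direction, 35.4% and 24.3% of all genes were called.

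The short-chain collagens form hexagonal lattices. Col8a1, known from vessel walls and the membrane under the corneal endothelium, was at 17.1, 20.2 and 17.8 CPM in control, 3.02, 3.39 and 3.71 in knockdown and 13.8, 14.6 and 15.2 in overexpression libraries. The 3 lines did not overlap, with the knockdown libraries far below the rest. Col8a1 fell 5.47-fold with knockdown (log2 -2.45 ± 0.14, edgeR adjusted p = 2.29e-09) and was 4.32-fold higher in overexpression than in knockdown (2.72e-08). Overexpression against control was -0.34 ± 0.13 and did not pass (0.0617), though it passed with limma-voom (0.0365), in a fit of only those lines (0.0366) and without knockdown replicate 3 (0.0445). Col8a2 had 10 counts over the 9 libraries, none in knockdown.

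Col10a1, the collagen of growth-plate cartilage, was at 6.13, 2.38 and 2.47 CPM in control, 0.947, 0.774 and 1.4 in knockdown and 1.46, 2.3 and 2.64 in overexpression libraries. Control replicate 1 was well above the other controls, and overexpression overlapped control. The fall in knockdown was log2 -1.81 ± 0.46 (edgeR adjusted p = 0.0059), and without control replicate 1 it was -1.21 and did not pass (0.0734). Col10a1 shares 18 exon bases with Nt5dc1 on the opposite strand, and the kit does not mark strand.

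Type VI collagen forms beaded filaments around cells from Col6a1, Col6a2 and another chain. Col6a1 was at 1.04, 1.21 and 0.887 CPM in control, 0.271, 0 and 0.122 in knockdown and 0, 0.177 and 0.115 in overexpression libraries. All controls lay above all other libraries, on 55 counts against 8 and 5. The fitted log2 difference was -2.85 ± 0.89 in knockdown (edgeR adjusted p = 0.0199) and -3.41 ± 0.95 in overexpression (0.0151). Col6a1 too passed the filter through control alone, so these values are a description. The knockdown call was lost without control replicate 1 or 2, without knockdown replicate 2 or 3 (0.0559 to 0.0718) and with the length offset (0.0518). It was -3.96 without knockdown replicate 1. The overexpression call was lost without control replicate 2 or overexpression replicate 1 or 3 (0.053 to 0.0729), and ranged from -2.79 to -4.13 over single libraries left out. Col6a2 was listed at 0 in every library and Col6a3 had 12 counts, so no library held reads of both Col6a1 and Col6a2.

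Of the transmembrane collagens, Col23a1 was tested, on 69 counts, and passed no comparison. Col17a1, of the junction between epidermis and dermis, had 7 counts in control, 21 in knockdown and 19 in overexpression. Col25a1, a chain made by neurons, had 21.3 estimated counts in all, and neither was tested. The remaining genes with counts, Col19a1 and Col28a1, had 3 each. Col6a2, Col6a4, Col6a5, Col6a6, Col13a1, Col22a1 and Col26a1 were listed at 0 in all 9 libraries. A total of 0 allows up to 0.0183 CPM over the 9 libraries (3 counts, counting error only). Of the 6 beaded filament genes 4 were thus without reads, and no fibrillar or basement membrane gene was.

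Listed by gene, 6 collagens were called lower than control in both perturbed lines (Col2a1, Col5a1, Col6a1, Col9a1, Col12a1 and Col18a1), of which Col6a1 and Col18a1 entered the test through control alone, and Col1a2 was higher in both. Both comparisons use the same control libraries, and the share of all genes called in both was not computed. Col1a1 was lower in knockdown and higher in overexpression, and Col4a1 and Col4a5 were higher in knockdown and lower in overexpression. In some alternative runs the overexpression calls of Col1a1 and Col4a1 were lost, as were both calls of Col1a2, Col4a5, Col6a1 and Col18a1. The knockdown calls of Col10a1 and Col11a2 were also lost in some. Lower in knockdown with no call in overexpression were Col8a1, Col10a1, Col11a2, Col14a1, whose test rested on control, and Col27a1. Of these, Col8a1, Col11a2 and Col27a1 also differed between the perturbed lines, while Col10a1 (edgeR adjusted p = 0.131) and Col14a1 (0.0945) did not pass that test. Col4a4 (higher) and Col4a2 (lower) were called in overexpression and not in knockdown, and both differed between the perturbed lines. No call was made against control in 8 tested genes: Col5a3, Col7a1, Col9a2, Col9a3, Col15a1, Col16a1, Col20a1 and Col23a1.

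The lists of other genes that make, bind or break down collagen are given as counts, to be read against the 35.4% of all genes called in knockdown and the 24.3% in overexpression. Among enzymes that prepare collagen chains in the endoplasmic reticulum, the calls went both ways. Of 14 hydroxylases and glycosyltransferases 11 were tested, with 3 higher and 2 lower in knockdown and 2 higher and 1 lower in overexpression. Plod1, a lysyl hydroxylase, rose from 148.5 ± 4.82 CPM in control to 194.5 ± 13.1 in knockdown and 214.6 ± 3.6 in overexpression (log2 0.39 and 0.53, edgeR adjusted p = 1.58e-05 and 1.09e-06). P3h3, of the prolyl 3-hydroxylase family, rose by log2 0.60 and 0.41, P3h2 rose in knockdown (0.58), and Plod2, the lysyl hydroxylase of telopeptides, fell (-0.26 and -0.27). The subunit P4hb was at 1114 ± 22.4, 1134 ± 11 and 1130 ± 34.3 CPM and passed in neither line.

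All 12 chaperone and export genes were tested, with 3 higher and 4 lower in knockdown and 3 lower in overexpression. The overexpression count is near the 24.3% of all genes called there in either direction, while 11.1% of all genes were lower. Serpinh1, the collagen-specific chaperone HSP47, fell from 1295 ± 22.6 CPM to 914.1 ± 57.9 in knockdown and 967.4 ± 6.44 in overexpression (log2 -0.50 and -0.42, edgeR adjusted p = 1.17e-07 and 1.66e-06). Sparc, a secreted collagen-binding protein, fell from 1075 ± 17.8 CPM to 783.2 ± 1.22 and 872.7 ± 20.0 (-0.46 and -0.30). Ppib, a prolyl isomerase, had log2 changes of -0.19 and -0.27, both called, and Sec23a, of the export coat, rose by 0.38 in knockdown.

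Outside the cell, Bmp1, the protease that trims the C-propeptide of fibrillar collagens, fell from 28.65 ± 2.32 CPM to 17.89 ± 1.62 in knockdown and 17.08 ± 1.21 in overexpression (log2 -0.68 and -0.74, edgeR adjusted p = 8.94e-05 and 7.13e-05). Its enhancers rose in knockdown, Pcolce by log2 0.48 and Pcolce2 by 1.56, and Tll1, a related protease at 0.54 CPM in control, rose by 1.67 in overexpression. The control mean of Tll1 lay below the low-count filter's level of 0.584 CPM, so that rise is a description. In this processing list 5 of 8 genes were tested, with 2 higher and 1 lower in knockdown and 1 each way in overexpression. Of 7 cross-linking genes 4 were tested, with 2 lower in knockdown, 1 lower in overexpression and none higher. Loxl2 fell, with log2 changes of -1.21 and -0.93 (edgeR adjusted p = 1.39e-06 and 3.54e-05). The other gene lower in knockdown, Loxl1, had a fitted log2 change of -3.75 there from a control level of 1.07 CPM. Its knockdown mean of 0.0745 CPM lay below the low-count filter's level of 0.584 CPM. The Loxl1 test thus rested on the other lines, and its value is a description.

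Of 10 fibril-binding proteins 3 were tested, with 1 higher and 1 lower in each line. Fn1, fibronectin, on which cells lay down collagen fibrils, fell from 487 ± 7.69 CPM to 110.7 ± 1.81 in knockdown and 123.4 ± 11.4 in overexpression (log2 -2.14 and -1.98, edgeR adjusted p = 1.49e-13 and 4.3e-13). Ogn, a small proteoglycan, rose by log2 3.39 and 3.90 from 0.14 CPM to 1.62 and 2.31 CPM. Its control mean lay below the low-count filter's level of 0.584 CPM. The Ogn test thus rested on the perturbed lines, and its values are a description. Bgn, Dcn, Lum and Fmod were too low to test. Among 11 receptors 8 were tested, with 2 higher and 2 lower in knockdown and 1 higher and 2 lower in overexpression. Itgb1, the common beta chain of collagen-binding integrins, fell by 0.27 and 0.22, and Adgrg1, a receptor of type III collagen, fell by 0.28 and 0.60. Itga1, the alpha chain of an integrin that binds type IV collagen, rose by 0.55 in knockdown, and Ddr2, a fibrillar collagen receptor, rose by 0.17 in overexpression. Of 7 collagen-degrading proteases 3 were tested, and Mmp14, a membrane-bound collagenase, rose by 0.22 and 0.16, all on the log2 scale.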

How the data were processed

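Per the labels' protocols, mRNA of cultured B16F10 cells was sequenced as read pairs of 150 bases from libraries that do not keep strand, so reads of overlapping genes on opposite strands cannot be told apart. The deposited tables give, per the file headers, an estimated count, a TPM value and an effective length for each transcript in each of the 9 libraries, which the authors made, per the submitters' processing notes, with Salmon 1.4.0 on mm39, with MultiQC 1.11 and DESeq2 1.34.0 also named. How reads were trimmed and which annotation release was used is not given in the sources used here. Because Salmon divides reads among similar transcripts, gene totals are firmer than single transcripts.

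Transcripts were matched by identifier to genes of GENCODE M21 (GRCm38); 137161 of 140789 matched (97.42%), and the rest held at most 0.654% of a library's counts. Estimated counts were summed per gene and rounded, and TPM was summed. Genes passing filterByExpr (13064) were fitted with edgeR 4.0.16 in R 4.3.3 (TMM, quasi-likelihood, line as the only term, all 9 libraries) and p-values were adjusted by Benjamini-Hochberg over all of them, with a threshold of 0.05. Standard errors were taken from the fitted log2 change and the F value of its test. The 95% intervals used a normal multiplier on them, so they are narrower than the degrees of freedom of the test would give. No pair of replicate libraries agreed within sampling noise (chi-square per degree of freedom 4.77 to 10.98). The code was tested on simulated data.

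The members and lists were chosen with earlier results of these data known. Values in every library are given for the 10 tested collagens highest in mean TPM and those called with a log2 change of at least 0.5; of other lists, up to 3 called genes per comparison with control with the lowest adjusted p. P4hb and the untested genes were named after their values were seen. Chain ratios are given where both chains reach 0.5 TPM in a line. Promoters were searched on both strands; windows that overlap annotated exons (Col16a1, Col4a1 and Col4a2) are not printed, and Col8a1 was added after its values were seen. Protein sequences were not used here. Alternatives were DESeq2 1.42.0, RLE scaling, no low-count filter, limma-voom (limma 3.58.1), average transcript length as an offset, a replicate block, a fit of only the lines compared and leaving out each library; counting protein-coding transcripts alone, and leaving out libraries from class sums, were added after seeing the data.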

Additional observations from a re-analysis of the deposited data

How the results depend on the processing

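Of the collagen calls, 9 of 15 in knockdown against control, 6 of 12 in overexpression against control and 8 of 12 between the perturbed lines passed in the same direction in every alternative run, and no called collagen changed direction in any. Leaving out single libraries gave 12 to 15, 8 to 13 and 8 to 11 collagen calls, and 3885 to 4555, 2440 to 3297 and 2241 to 2867 calls over all genes. With average transcript length as an offset 2773, 1517 and 1377 genes were called in all, and 7 collagens in overexpression against control; the cause was not tested. The replicate numbers did not pair the libraries (1 of 9 pairs correlated above 0.1, range -0.093 to 0.123, and 3 of 9 libraries correlated best with their own number), and the fit with the replicate block called 15, 11 and 11 collagens and 4423, 2957 and 2712 genes; it ended the calls of Col18a1 in overexpression (edgeR adjusted p = 0.0797) and Col16a1 between the perturbed lines (0.0579), and no other collagen call. On protein-coding transcripts alone the class sums were 17.26 TPM (fibrillar, knockdown), 34.48 (basement membrane, control) and 29.98, 15.41 and 24.55 (neither class, control, knockdown and overexpression).

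Signs changed for log2 differences that had not passed. With limma-voom these were Col18a1 (-0.25) and Col9a2 (-0.24) between the perturbed lines. With the length offset they were Col20a1 (0.43), Col15a1 (-0.36) and Col23a1 (1.02) in overexpression, and Col18a1 (-0.0897) and Col2a1 (-0.29) between the perturbed lines. With the replicate block it was Col9a2 (-0.0848) between them. On protein-coding transcripts they were Col5a3 in knockdown (-0.0116), Col9a3 (-0.00356) and Col16a1 (-0.19) in overexpression, and Col1a2 (0.0282) between the lines. Leaving out single libraries, the range crossed 0 in knockdown for Col5a3 (-0.10 to 0.10) and Col9a2 (-0.0131 to 0.757). It did in overexpression for Col20a1 (-0.19 to 0.18), Col9a3 (-0.15 to 0.62), Col9a2 (-0.0149 to 0.81) and Col27a1 (-0.25 to 0.0264). Between the perturbed lines it did for Col6a1 (-1.28 to 0.56), Col18a1 (-0.54 to 1.112), Col9a1 (-0.27 to 0.48), Col9a2 (-0.33 to 0.46) and Col1a2 (-0.16 to 0.0668). Depth was lowest for the called genes Col6a1, Col14a1 and Col18a1, with 120 counts or fewer each over the 9 libraries.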
